A study of Mus musculus with 2 samples.

Results

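The genes described here encode enzymes and a globin that supply muscle with usable energy. They are the muscle creatine kinase Ckm, the sarcomeric mitochondrial creatine kinase Ckmt2, the general or brain-type creatine kinase Ckb, the muscle glycogen phosphorylase Pygm, the muscle phosphofructokinase Pfkm, the muscle enolase Eno3, the muscle phosphoglycerate mutase Pgam2, the adenylate kinase Ak1 and myoglobin, Mb. The 9 genes were chosen by name, with earlier results of these data known. Every probe set that the array annotation assigns to 1 of them alone was taken. This gave 12 probe sets of 45037 on the array, for 9 of 18193 named genes. Of these genes 3 had more than 1 probe set and 6 had 1. The question was whether the muscle isoforms differed between cultures in another way than Ckb, which many tissues use.

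The samples were 1 culture of Foxj3 knockout (KO) and 1 of Foxj3 wild-type (WT) mouse skeletal myoblasts, which are proliferating muscle precursor cells. Foxj3 encodes a forkhead transcription factor. Both cultures had been passaged 3 times, were grown in medium with 20% fetal bovine serum and antibiotics, and were harvested at 80% confluency, per the labels, and neither received a treatment to induce differentiation that the labels mention. The knockout allele, the strain, and the age and number of the donor animals are not stated in the labels. Total RNA of each culture was hybridised to 1 Affymetrix oligonucleotide array. With 1 array per group the spread between cultures is unknown and no p-value was computed, so each value describes these 2 arrays alone.

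In muscle, creatine kinase moves phosphate between creatine phosphate and ATP and so buffers ATP when a fibre contracts. The enzyme has cytosolic muscle and brain forms and mitochondrial forms, and it is textbook knowledge that myoblasts hold mainly the brain form and that Ckm is switched on as they differentiate. Pygm releases sugar phosphate from glycogen. Pfkm, Pgam2 and Eno3 catalyse steps of glycolysis for which other tissues use sister genes. Ak1 interconverts adenine nucleotides, and Mb binds oxygen.

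Promoter sequences are shown for 4 of the genes because the values of these genes carry the comparison. Pgam2 had the lowest ratio, Mb the highest, and Ckm and Ckb are the cytosolic creatine kinases. Each sequence is the 250 bases before an annotated start in the RefSeq annotation of GRCm38.p6, read on the gene's strand. For Mb, which has 3 annotated starts, the window shown is the upstream one of a pair of close starts inside the gene. Capitals mark E-boxes (CANNTG), the motif bound by MyoD and myogenin, and matches to the MEF2 consensus.
Pgam2 (chr11:5803797-5804046, - strand): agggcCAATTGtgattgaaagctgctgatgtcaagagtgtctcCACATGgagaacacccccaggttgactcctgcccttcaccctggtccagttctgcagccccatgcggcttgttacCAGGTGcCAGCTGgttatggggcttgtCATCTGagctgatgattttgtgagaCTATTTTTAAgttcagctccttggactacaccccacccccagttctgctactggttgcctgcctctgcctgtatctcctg
Ckm (chr7:19410844-19411093, + strand): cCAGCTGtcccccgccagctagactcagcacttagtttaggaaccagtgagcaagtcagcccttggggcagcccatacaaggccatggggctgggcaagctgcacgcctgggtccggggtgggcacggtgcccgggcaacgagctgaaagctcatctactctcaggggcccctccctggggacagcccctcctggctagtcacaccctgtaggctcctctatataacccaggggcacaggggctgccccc
Ckb (chr12:111672339-111672588, - strand): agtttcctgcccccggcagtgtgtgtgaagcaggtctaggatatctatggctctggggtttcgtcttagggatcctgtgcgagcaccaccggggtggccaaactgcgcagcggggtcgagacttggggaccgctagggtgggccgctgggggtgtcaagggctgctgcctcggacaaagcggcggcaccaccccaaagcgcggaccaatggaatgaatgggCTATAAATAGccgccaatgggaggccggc
Mb (chr15:77022788-77023037, - strand): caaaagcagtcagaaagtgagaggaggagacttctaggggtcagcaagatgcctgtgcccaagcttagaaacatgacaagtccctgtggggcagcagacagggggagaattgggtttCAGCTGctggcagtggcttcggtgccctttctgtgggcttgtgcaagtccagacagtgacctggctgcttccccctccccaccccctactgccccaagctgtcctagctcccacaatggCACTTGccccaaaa
The annotation gave 17 such windows for the 9 genes, some of them overlapping. An E-box was present in 15 of the 17 windows, and in at least 1 window of each gene except Ckb, while 66.2% of all 32851 promoter windows hold it. The Pgam2 window holds 5 E-boxes. The MEF2 consensus was found in the windows of 2 of the 9 genes, Pgam2 and Ckb, and in 2.92% of all windows. The match starts 80 bases before the start in Pgam2. In Ckb it starts 29 bases before the start and overlaps TATAAA, which 12.4% of all windows hold on either strand. The forkhead core TAAACA was in 0 of the 17 windows and in 12.0% of all windows. Both strands were searched, and a match in letters is a description of the window only.

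A detection floor was set at the 40th percentile of the values of both arrays, 47.04 intensity units. Lower values were raised to the floor before log2 was taken, and a gene or probe set was counted as measured if it was over the floor on at least 1 array. Of the 12 probe sets 10 were over the floor on both arrays and 2 were under it on both. Foxj3 itself read 77.28 on the KO array and 495.51 on the WT array by its brightest probe set, 99.40 (KO) and 79.74 (WT) by another, and was under the floor on both by its remaining probe set. These probe sets disagree, so they leave the labels unchecked. Of the 7 markers of skeletal myoblasts, among them Myod1, Myf5, Pax7 and Des, all were measured, and their summed intensity was 7990 on the KO array and 7974 on the WT array. The members went different ways within that sum. By brightest probe set, Myod1 was the 1 member at least 2-fold different (log2 ratio 1.47). Des (-0.89), Itga7 (-0.62) and Cdh15 (-0.55) were lower on the KO array by less than 2-fold. The other probe set of Des was higher (0.82). For Pax7 the brightest probe set gave 0.29, and the other was at least 2-fold higher (1.27). Markers of differentiated skeletal fibres were lower. All 6 measured of 8 were at least 2-fold lower on the KO array, where 6.72% of all measured genes were, with a summed intensity over the list of 4214 on the KO array and 20144 on the WT array, and Myh2 and Myh4 were under the floor on both. By brightest probe set, the lists of macrophage, endothelial, fibroblast, red blood cell and nerve markers had 0 measured members at least 2-fold different. Another probe set each of Csf1r (log2 ratio 1.11) and Col1a1 (at least 1.15, with the WT value under the floor) was at least 2-fold higher on the KO array. Cd68 and Ptprc (macrophages) and Pecam1 and Tek (endothelium) were under the floor on both arrays. Adgre1 (210.32 KO, 312.77 WT) and Csf1r (276.49 KO, 171.16 WT) of the macrophage list and Kdr (101.27 KO, 110.2 WT) of the endothelial list were over it on both. Lists of 3 other tissues did have members that differed.

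Of the heart muscle markers, both measured of 6 were at least 2-fold lower on the KO array. Tnni3, the cardiac troponin I, read 92.58 on the KO array and 24578 on the WT array (log2 ratio -8.05), and Tnnt2, the cardiac troponin T, 479.33 (KO) and 2301 (WT, log2 ratio -2.26). Myh6, Nppa, Nppb and Ryr2 were under the floor on both arrays, and the summed intensity of the heart list was 676.28 on the KO array and 26953 on the WT array. Most of that WT sum is the value of the single Tnni3 probe set, the highest on the WT array among the probe sets used. Of 3 measured of 4 smooth muscle markers, Myh11 was lower (84.77 on the KO array and 337.84 on the WT array), Tagln was higher (1749 on the KO array and 625.85 on the WT array), Acta2 differed by less than 2-fold (log2 ratio -0.25) and Cnn1 was under the floor on both. This list summed to 6920 on the KO array and 7029 on the WT array. Of 2 measured adipocyte markers, Fabp4 was lower (113.25 on the KO array and 412.18 on the WT array), its other probe sets and Adipoq were under the floor on both arrays, and the list summed to 178.39 on the KO array and 507.04 on the WT array. Over all measured genes 6.72% were at least 2-fold lower and 3.73% at least 2-fold higher. In each of these short lists a single gene is already more than either share. The part that the differences of the fibre, heart, smooth muscle and adipocyte markers play in the results below was not tested. In such bulk RNA, fewer cells of a type and less RNA per cell cannot be told apart.

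**Figure D1:**
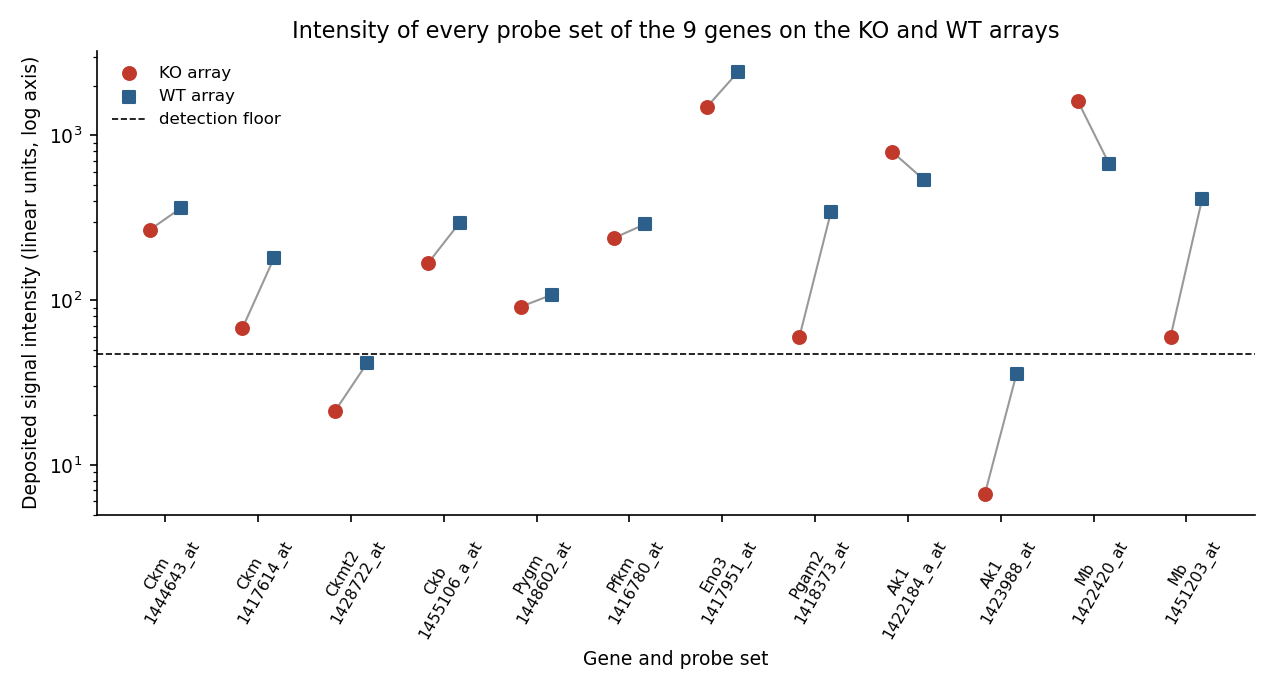
Deposited intensity of each of the 12 probe sets, with the KO array (circles) left of the WT array (squares), on a log axis, and the floor of 47.04 dashed. The KO value is the lower one for every probe set except Ak1 1422184_a_at and Mb 1422420_at.

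Ckb and Ckm were lower on the KO array by every one of their probe sets. Ckb, by its single probe set 1455106_a_at, read 167.78 on the KO array and 295.18 on the WT array, 1.76-fold lower (log2 ratio of KO over WT -0.82). Ckm had a pair of probe sets. The brighter one, 1444643_at, read 267.01 on the KO array and 363.16 on the WT array (log2 ratio -0.44). The other, 1417614_at, whose source record is a RefSeq transcript of Ckm, read 67.67 on the KO array and 180.42 on the WT array, 2.67-fold lower (log2 ratio -1.41). Both Ckm probe sets gave the same direction and differed in size by 0.97 on the log2 scale, and 38.9% of the 4752 genes with several probe sets exceeding the floor on each array had a gap at least as large. Ckmt2, which feeds mitochondrial ATP into the creatine system of the sarcomere, was under the floor on both arrays, at 21.33 on the KO array and 41.26 on the WT array. With the floor at the 20th percentile Ckmt2 was at least 1.64-fold lower on the KO array.

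Pygm and Pfkm were each less than 1.5-fold different. Pygm read 91.29 on the KO array and 108.11 on the WT array (log2 ratio -0.24), 1.94 times the floor (KO) and 2.30 times (WT). Pfkm read 237.88 on the KO array and 289.49 on the WT array (log2 ratio -0.28). Both were lower on the KO array, by less than the spread between probe sets of a gene. That spread was measured on the 3047 genes with exactly 2 probe sets that exceeded the floor on each array. Within such a gene the ratios differed, on the log2 scale, with an SD of 0.88, which is an SD of 0.63 for a single probe set. It describes how far probe sets of a gene disagree on these arrays, which can include probe sets that read different transcripts, and is no measure of the spread between cultures.

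The late glycolytic enzymes were both lower on the KO array. Pgam2, which interconverts phosphoglycerates and is the form of adult muscle, read 59.61 on the KO array and 341.34 on the WT array, 5.73-fold lower (log2 ratio -2.52). Its KO value was 1.27 times the floor, and its WT value 7.26 times. Only 46 of 14597 measured genes had a lower ratio. The gene has 1 probe set, so no other probe set could be set beside this value. Eno3, the next enzyme of the pathway, read 1478.78 on the KO array and 2430.59 on the WT array, 1.64-fold lower (log2 ratio -0.72), and 14.0% of all measured genes had a lower ratio. In intensity units the Eno3 probe set was lower by 951.81 on the KO array, but its ratio was far closer to 0 than that of Pgam2.

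Ak1 and Mb were higher on the KO array by their brightest probe sets. Ak1 1422184_a_at read 795.87 on the KO array and 539.62 on the WT array (log2 ratio 0.56), and the other Ak1 probe set was under the floor on both arrays at 6.70 (KO) and 35.65 (WT). Mb 1422420_at read 1619.51 on the KO array and 668.04 on the WT array, 2.42-fold higher (log2 ratio 1.28). Mb 1451203_at went the other way, with 60.11 on the KO array and 411.32 on the WT array, 6.84-fold lower (log2 ratio -2.77). The gap of 4.05 between these log2 ratios ranked 3 among the 4752 genes with several probe sets exceeding the floor on each array, whose median gap was 0.78. The source record of 1422420_at is a RefSeq transcript of Mb, and that of 1451203_at is a GenBank record that is not listed among them. Where in the gene the probes lie was not used here. The direction of Mb therefore depends on the probe set, and the mean over both gave a log2 ratio of -0.75.

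**Figure D2:**
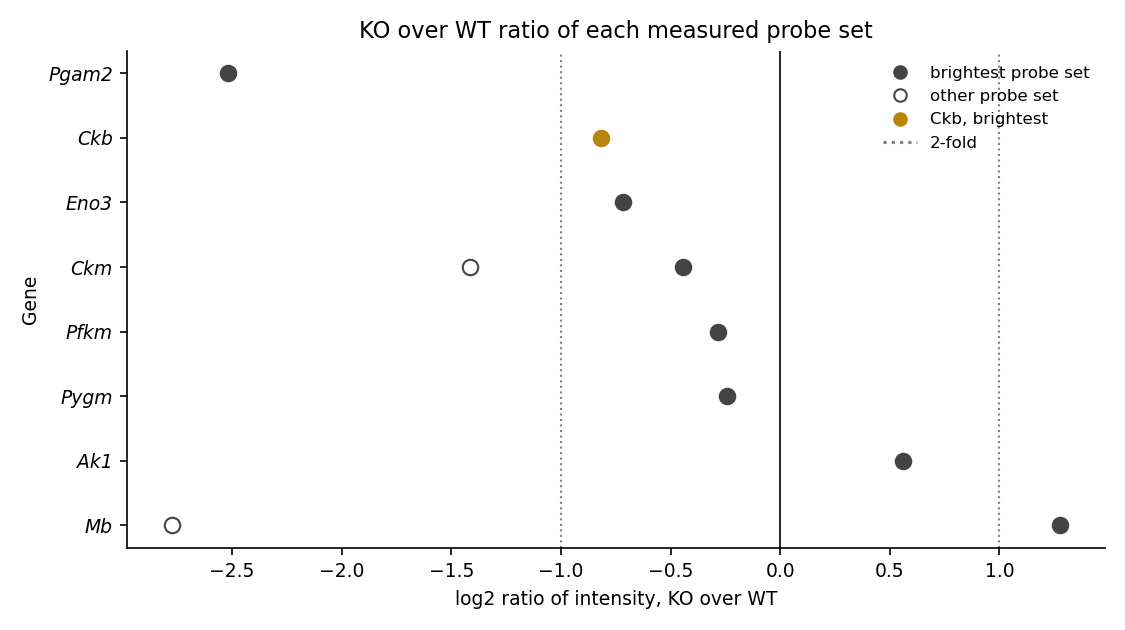
log2 ratio of intensity, KO over WT, for each measured probe set of the 8 measured genes, with the brightest probe set of a gene filled, others open, Ckb in gold and 2-fold dotted. Pgam2 lies at -2.52, Ckb at -0.82, and the Mb probe sets at 1.28 and -2.77.

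Counted by the brightest probe set, 1 of the 7 measured muscle isoforms (Pgam2) was at least 2-fold lower on the KO array and 1 (Mb) at least 2-fold higher. Over all measured genes 6.72% were at least 2-fold lower and 3.73% at least 2-fold higher. With 7 genes a single gene is already more than these shares, so the counts say little about the group. The muscle isoforms had a median log2 ratio of -0.28, against -0.06 over all 14597 measured genes, and 5 of 7 were below 0, against 53.7% of all measured genes. Counted over the 10 measured probe sets of all 9 genes, 3 were at least 2-fold lower (Pgam2, Ckm 1417614_at and Mb 1451203_at) and 1 at least 2-fold higher (Mb 1422420_at). The shares over all measured probe sets of the array were 6.29% and 5.44%. Pgam2 is a gene of middle brightness, and among measured genes divided into 3 classes of equal size by brightness, 9.78% of the middle class were at least 2-fold lower. At 1.5-fold, 2 of the 7 muscle isoforms were lower and 1 higher, where 19.3% and 12.8% of all measured genes were. At 3-fold, 1 was lower and 0 higher, where 1.51% and 0.747% of all measured genes were.

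**Figure D3:**
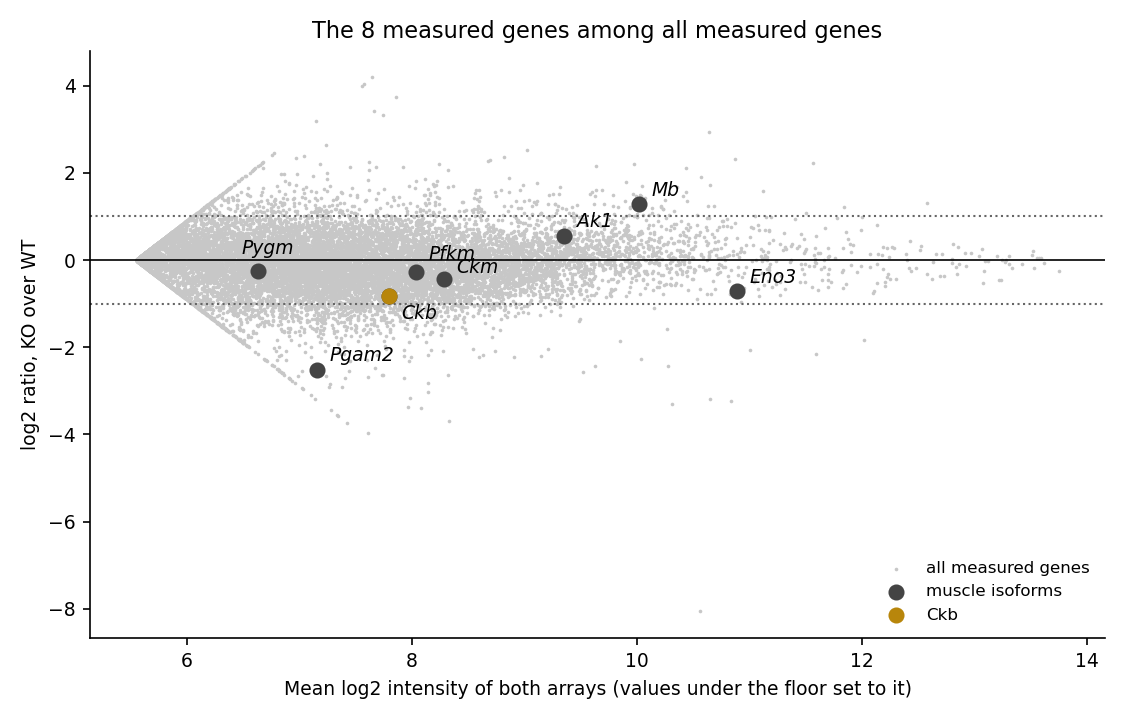
log2 ratio, KO over WT, against mean log2 intensity for all 14597 measured genes (grey), with the 7 measured muscle isoforms in dark grey, Ckb in gold and 2-fold dotted. Pgam2 and Mb lie outside the dotted lines, and the other members inside them.

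Set against Ckb, 4 of the 7 measured muscle isoforms differed from it in ratio by less than the spread between probe sets, 2 were higher and 1 was lower. Their median lay 0.53 above the log2 ratio of Ckb, and 0.10 above it with the mean over measured probe sets. The SD of 0.88 between the ratios of a pair of probe sets is no measure of how far such a median varies. Pgam2 was lower than Ckb in its ratio by a difference of -1.70, larger than that SD. Mb and Ak1 were higher than Ckb by 2.09 and 1.38, also past that spread, though for Mb the other probe set reverses the difference. Eno3 (0.10), Ckm (0.37), Pfkm (0.53) and Pygm (0.57) differed from Ckb by less than that spread. In the order of ratios, Pgam2, Ckb, Eno3, Ckm, Pfkm, Pygm, Ak1 and Mb, each neighbouring pair after Pgam2 and Ckb differed by 0.04 to 0.80, less than the spread. Ckb thus had a lower ratio than 6 of the 7 muscle isoforms by brightest probe set. This order turned for Eno3 with quantile scaling (-0.92 for Eno3 and -0.70 for Ckb), with loess scaling (-0.87 for Eno3 and -0.68 for Ckb) and with the floor added to each value as a pseudocount (-0.70 for Eno3 and -0.67 for Ckb). It turned for Ckm with the mean over measured probe sets (-0.93 for Ckm and -0.82 for Ckb). By the RefSeq-derived probe set of Ckm, Ckm at -1.41 had a lower ratio than Ckb, by less than the spread.

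The sister genes that other tissues use gave a comparison within each enzyme family. They too were chosen with earlier results of these data known. Of 16 such genes 13 had a probe set of their own and 10 were measured. None of the 10 was at least 2-fold different by its brightest probe set, and their median log2 ratio was -0.27. Over all measured genes 6.72% were at least 2-fold lower and 3.73% at least 2-fold higher. With 10 genes such a count says little. Pgam1, the general phosphoglycerate mutase, read 1949.19 on the KO array and 2271.21 on the WT array (log2 ratio -0.22). The ratio of Pgam2 was lower than that of Pgam1 by a difference of -2.30, past the spread of 0.88. For phosphofructokinase, the ratio of Pfkm at -0.28 lay beside -0.40 for Pfkl and -0.70 for Pfkp, whose other measured probe sets had ratios above 0 (0.15 and 0.44 for Pfkl, 0.65 as a bound for Pfkp). For glycogen phosphorylase, Pygm at -0.24 lay beside -0.31 for Pygb, and Pygl, the liver form, was under the floor on both arrays. These muscle and general forms differed in ratio by 0.07 to 0.42, within the spread. Among adenylate kinases, Ak1 at 0.56 was close to Ak4 at 0.50 and above Ak5 at -0.43 and Ak3 at -0.73. Ak3, Ak4 and Ak5 each had another measured probe set of the opposite sign, at 1.65 for Ak3, -1.84 for Ak4 (a bound) and 1.15 for Ak5. Eno4 had a log2 ratio of -0.06, Ngb, which encodes neuroglobin, -0.12, and Ckmt1, the ubiquitous mitochondrial creatine kinase, 0.04 with its WT value under the floor. Eno2 and Cygb were under the floor on both arrays.

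The wider pathway was described by 5 further lists, which were chosen with earlier results of these data known. Muscle-type mitochondrial and fatty acid genes had 3 of 5 measured members at least 2-fold lower on the KO array, where 6.72% of all measured genes were. Cox6a2, the heart and muscle form of a cytochrome oxidase subunit, read 184.03 on the KO array and 754.59 on the WT array, 4.10-fold lower, and its other probe set read 5.02 (KO) and 365.75 (WT). Cox8b (38.19 on the KO array and 361.76 on the WT array) was at least 7.69-fold lower and Cox7a1 (28.07 on the KO array and 104.55 on the WT array) at least 2.22-fold lower, with KO values under the floor. Fabp3, a fatty acid carrier of heart and muscle, gave 171.37 on the KO array and 142.37 on the WT array by its brightest probe set, but 34.75 (KO) and 176.85 (WT) by its other probe set. Slc25a4, the muscle ATP and ADP carrier of mitochondria, read 2250.22 on the KO array and 2176.44 on the WT array.

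Glycogen metabolism had 1 of 14 measured members at least 2-fold lower and 1 at least 2-fold higher, where 6.72% and 3.73% of all measured genes were, with a median log2 ratio of -0.39. The first share is close to 1 of 14. The lower one was Phkb, a subunit of the kinase that activates glycogen phosphorylase, at 48.41 on the KO array and 172.65 on the WT array (3.57-fold lower). Its KO value was 1.03 times the floor, and with the floor at the 60th percentile 0 members were at least 2-fold lower. The higher one was Pgm2, which encodes a phosphoglucomutase family enzyme, at 148.63 on the KO array and 73.14 on the WT array (2.03-fold higher). With median scaling, with the floor at the 60th percentile and with the pseudocount 0 members were at least 2-fold higher. Of the 11 measured glycolytic enzymes shared by many tissues 0 were at least 2-fold different by brightest probe set, and their median was -0.28. By that probe set the largest differences were those of Hk2, a hexokinase of muscle and fat, at 331.74 on the KO array and 553.31 on the WT array, and of Tpi1, triosephosphate isomerase, at 1837.42 (KO) and 2728.89 (WT). Hk1, another hexokinase, read 581.78 (KO) and 529.83 (WT) by its brightest probe set. Its other probe set read 157.98 (KO) and 45.81 (WT, under the floor), at least 3.36-fold higher. With probe sets of a RefSeq source record 1 member of this list was at least 2-fold higher.

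In the list of creatine supply and the purine nucleotide cycle, 0 of 9 measured members were at least 2-fold lower and 1 at least 2-fold higher by brightest probe set. Over all measured genes 6.72% were at least 2-fold lower and 3.73% at least 2-fold higher. With 9 genes a single gene is already more than either share. The higher one was Adss, the general adenylosuccinate synthase, at 823.44 on the KO array and 349.31 on the WT array, 2.36-fold higher. Its muscle counterpart Adssl1 read 232.03 on the KO array and 416.78 on the WT array (log2 ratio -0.84). The creatine transporter gene Slc6a8 read 233.46 on the KO array and 420.59 on the WT array by its brightest probe set, and 418.14 (KO) and 161.13 (WT) by another. Adssl1, Slc6a8, Fabp3, Slc25a4 and Hk1 were chosen after their values were seen.

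Of 11 measured factors known to act on muscle energy genes, 5 were at least 2-fold lower and 1 at least 2-fold higher, where 6.72% and 3.73% of all measured genes were, with a median log2 ratio of -0.72. The count of 5 fell to 3 with the mean over measured probe sets, and to 3 when all measured probe sets of a gene had to share a sign. Mef2c and Mef2d encode factors that bind the MEF2 consensus marked in the sequences above. By brightest probe set, Mef2c read 42.26 on the KO array and 403.70 on the WT array, at least 8.58-fold lower. Mef2d read 163.03 (KO) and 511.54 (WT, 3.14-fold lower). All 5 measured probe sets of Mef2c were lower, with a mean log2 ratio of -1.67, bounds included. The only Mef2c probe set over the floor on both arrays read 55.35 (KO) and 71.45 (WT), 1.29-fold lower. Myog, which encodes myogenin, read 487.79 on the KO array and 1753.96 on the WT array (3.60-fold lower). Ppargc1a and Ppargc1b, coactivators of mitochondrial genes, were 3.28-fold and 2.01-fold lower. The KO value of that Ppargc1a probe set was 1.09 times the floor. Mef2d and Ppargc1a are the genes lost from the count, since each had a probe set that was not lower, at 148.69 on the KO array and 147.71 on the WT array for Mef2d and at 50.27 (KO) and 28.06 (WT, under the floor) for Ppargc1a. Their means over probe sets were -0.97 and -0.89. Myod1 was the higher member, at 1750.95 on the KO array and 631.27 on the WT array (2.77-fold). Over the 5 lists and the sister genes together, 9 of 60 measured genes were at least 2-fold lower and 3 at least 2-fold higher, where 6.72% and 3.73% of all measured genes were.

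**Figure D4:**
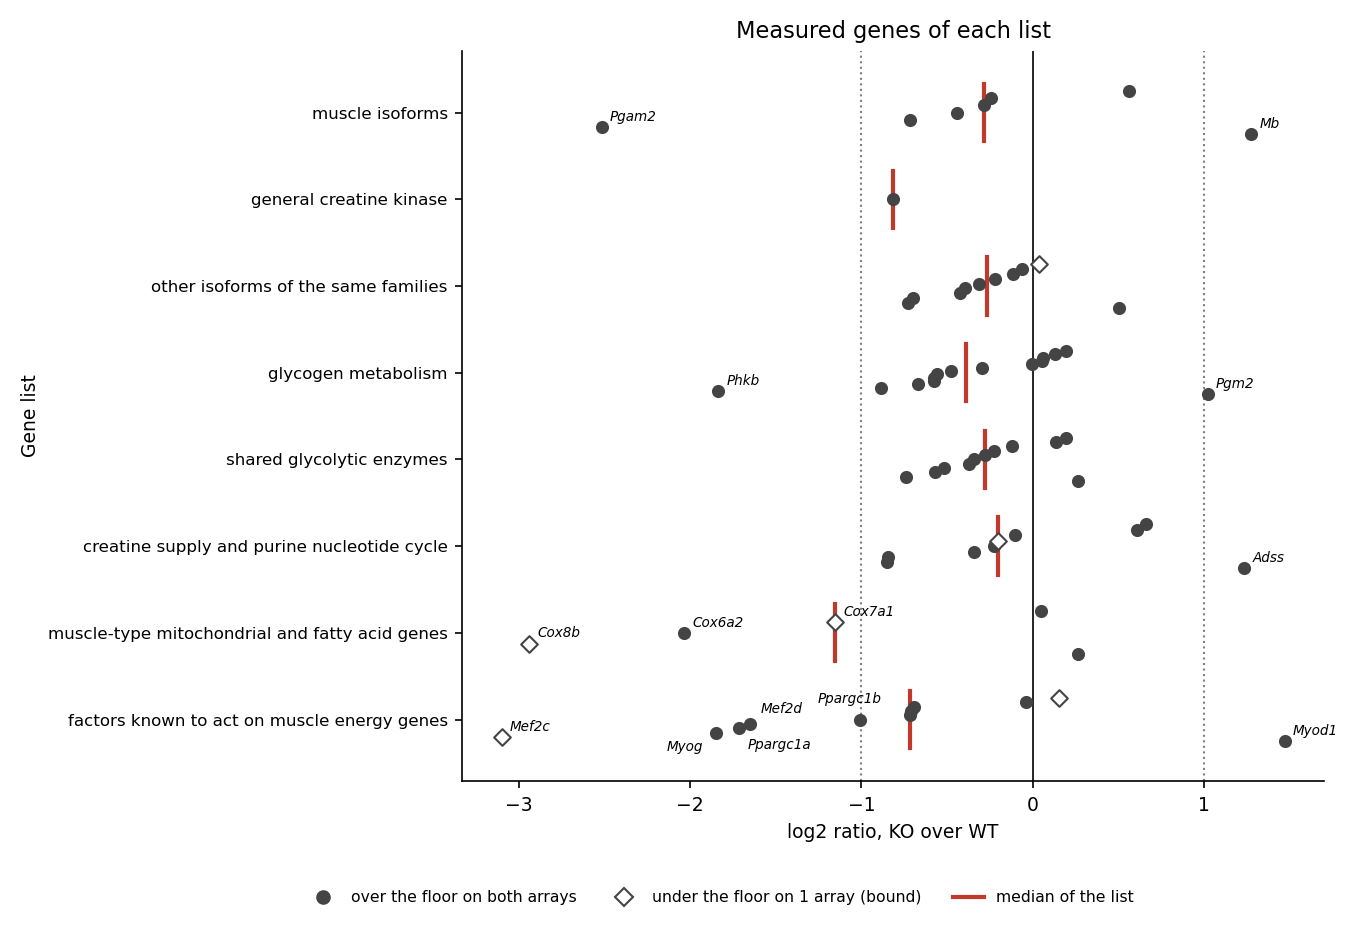
log2 ratio, KO over WT, of every measured gene of each list by its brightest probe set. Diamonds are ratios with 1 array under the floor, red bars are medians, and genes at least 2-fold different (dotted lines) are named. The muscle-type mitochondrial list has the lowest median of the lists with several genes, -1.15, and the medians of the muscle isoforms (-0.28) and of their sister genes (-0.27) lie close to each other.

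The ratios of the members were recomputed under 10 other settings of scaling, floor and choice of probe set. Pgam2 was at least 2-fold lower in all 11 settings, with log2 ratios of -2.56 to -1.86. Ckb was measured in 10 of them, at -0.86 to -0.67, and was under 2-fold in each. Pygm, Pfkm, Eno3 and Ak1 kept their sign and stayed under 2-fold in every setting that measured them. Pgam2, Ckb, Pygm, Pfkm and Eno3 each have 1 probe set, which is over the floor on both arrays. A lower floor, no floor or another choice of probe set could therefore not change their ratios, and only the remaining settings could. Ckm ranged over -1.41 to -0.30, and Mb over -0.75 to 1.28.

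**Figure D5:**
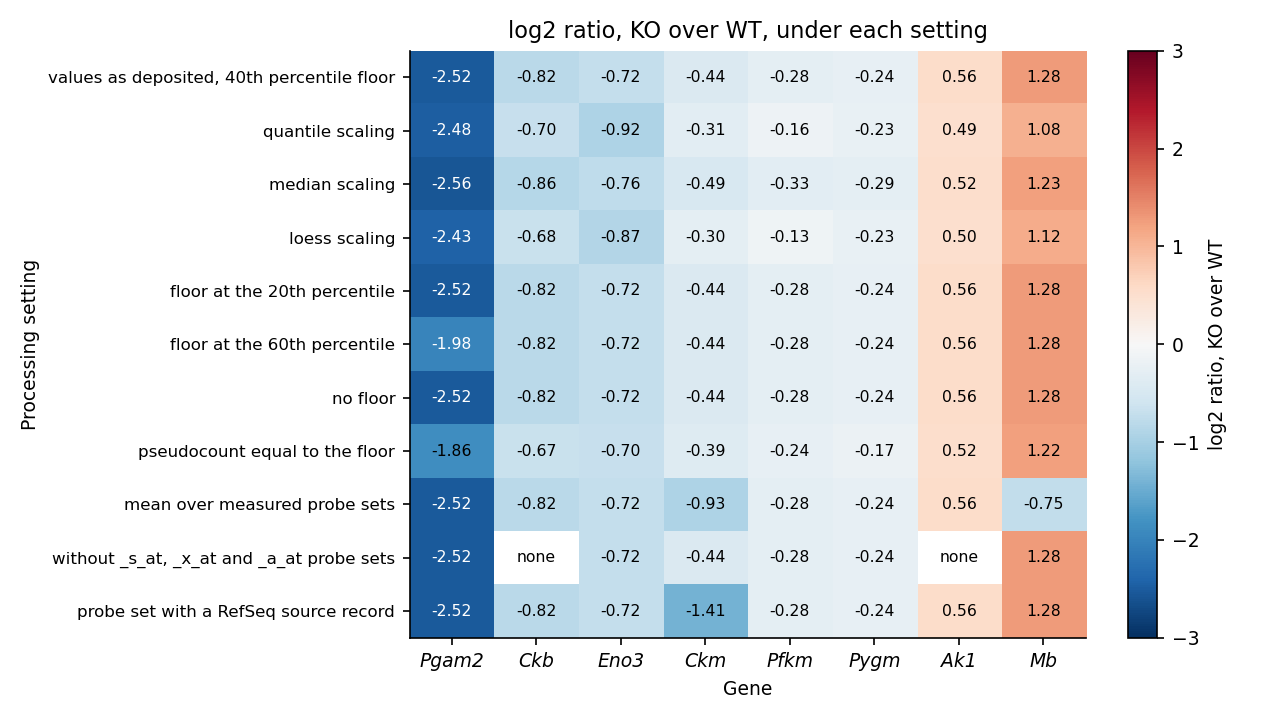
log2 ratio, KO over WT, of the 8 measured genes (columns, lowest on the left) under each processing setting (rows), with red for higher and blue for lower on the KO array. The sign differs between settings for Mb alone, at -0.75 with the mean over its probe sets, and Ckm reaches 2-fold with the probe set of a RefSeq source record alone.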

How the data were processed

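RNA of 1 KO and 1 WT culture was labelled from 10 ug of total RNA and hybridised to 1 array each, per the labels' protocols. In the deposited value table each probe set has 1 intensity on a linear scale for each array. The summary algorithm, the scaling and the genome build are not given in the sources used here. Means that leave out the lowest and highest 2% of values were 125.53 on the KO array and 126.12 on the WT array, so the deposited intensity values were used unscaled. The medians were 63.94 on the KO array and 62.03 on the WT array. Precision is limited by the number of arrays.

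Probe sets were named by the platform annotation, with symbols updated through Entrez identifiers. Of 45037 probe sets, 34945 had 1 symbol (34741 of them in the RefSeq gene table), 932 had several and named no gene, and 9160 were not listed. Each gene took the values of its brightest probe set (highest mean of log2). A ratio with 1 array under the floor of 47.04 (the 40th percentile) is a bound, written "at least N-fold". The ratio is KO over WT, and genes were counted past 2-fold in either direction.

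The members and lists were chosen with earlier results of these data known. Genes to be named were all 9 members, Foxj3, all measured sister genes, and from each other list up to 6 members at least 2-fold different, or the 2 largest. No likeness between genes was computed, since on 2 arrays a pattern is 1 ratio. The calculation was tested on simulated data. Their noise was smaller than the spread between probe sets given above, and differences were placed in bright genes only. That test checks the calculation and does not cover values near the floor. Python 3.11.15, pandas 2.3.3, numpy 2.4.6 and statsmodels 0.14.6 were used. Alternatives were scaling by quantiles, by the median or by loess (span 0.3), a floor at the 20th or 60th percentile or none, adding the floor as a pseudocount, averaging over measured probe sets, leaving out probe sets ending in _s_at, _x_at or _a_at, thresholds of 1.5-fold and 3-fold, and agreement of probe sets. The choice of probe sets with a RefSeq source record was added after seeing the data.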

Additional observations from a re-analysis of the deposited data

How the results depend on the processing

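The count of muscle isoforms at least 2-fold lower on the KO array was 1 under every scaling and floor, 2 with a threshold of 1.5-fold, and 2 with probe sets of a RefSeq source record, where Ckm was added by its other probe set. The count at least 2-fold higher was 1 for the same scalings and floors. It was 0 with the mean over measured probe sets, 0 with a threshold of 3-fold, and 0 when all measured probe sets of a gene had to share a sign, because the probe sets of Mb disagree. With that mean the log2 ratio of Mb turned to -0.75 and the median of the muscle isoforms moved to -0.72, 0.10 above Ckb in place of 0.53. The pseudocount moved the ratio of Pgam2 to -1.86, and the floor at the 60th percentile, under which its KO value lies, to -1.98. Of the 60 measured genes of the sister and companion lists, 19 were lower and 5 higher with a threshold of 1.5-fold. Over all measured genes 19.3% were lower and 12.8% higher at that threshold. With a threshold of 3-fold, 7 of the 60 were lower and 0 higher, where 1.51% and 0.747% of all measured genes were. Without probe sets ending in _s_at, _x_at or _a_at, Ckb and Ak1 had no value. No paired analysis was possible because the labels give no replicate numbers and there is 1 array per group.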

Other observations

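Opposite readings by probe sets of the same gene were not limited to Mb. Among the 4752 genes with several probe sets exceeding the floor on each array, 77 (1.62%) had 1 probe set at least 2-fold higher and another at least 2-fold lower on the KO array. Mb had the widest gap of these 77. Tpm1, which encodes a tropomyosin of the thin filament, followed among muscle genes with log2 ratios of 1.84 and -1.68 at its extremes over 4 probe sets, and Ncl, which encodes nucleolin, had 2.40 and -1.54 over 4. Tpm1 and Ncl were chosen after their values were seen. The positions of the probes were not used here, and the cause was not tested.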
